A study of Mus musculus with 17 samples.

Results

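Transcript levels of 42 interferon-stimulated genes and their regulators were examined in mouse RNA sequencing libraries of small intestine after hepatectomy and of samples labelled liver from a DSS time course. The genes were chosen by name from a list of interferon response genes that leaves out most interferon-induced GTPases (Mx1 and Mx2 are kept). The rule itself uses no measured value. All 42 were found among the 33840 genes of the intestinal files and among the 24594 identifiers of the files labelled liver, and all 42 passed the filter on low counts in both. Each was assigned to 1 of 5 roles, giving 22 antiviral effectors, 5 nucleic acid sensors, 5 transcription factors, 4 feedback and ADP-ribosylation genes, and 6 genes of interferon-gamma type or antigen processing.

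The 17 libraries fell into 7 groups, all labelled WT. The intestinal groups were crypts after hepatectomy, crypts after sham surgery, the fraction labelled IEC after hepatectomy and the IEC fraction after sham surgery, with 2 samples each. The other groups carried the tissue label liver and the treatment label DSS at day 0, day 10 and day 20, with 3 samples each. The labels do not state strain, age, sex, dose, the extent of the hepatectomy and the time from operation to sampling. They also do not say whether samples of a group came from separate animals, so p-values reflect sample-to-sample spread that may be technical only.

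Interferons are secreted proteins that cells release on sensing viral or bacterial nucleic acid. Type I and type III interferons act through receptors tied to the kinases JAK1 and TYK2 and switch on genes through a complex that holds STAT2 and IRF9 and binds the interferon-stimulated response element. Interferon gamma acts through JAK1 and JAK2 on genes that carry the gamma-activated site, and it is known for raising IRF1 and the antigen-processing machinery. In the gut epithelium the response is known to guard against enteric viruses and, when strong, to affect crypt cells.

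Promoter windows of 4 members are shown because they carry the letters of one element or the other and because their genes lie on opposite sides of the crypt comparison below. Each window runs from 250 bases before to 50 bases after the annotated start (RefSeq, GRCm38.p6, gene strand, 5′ to 3′). Capitals mark matches to the core of the interferon-stimulated response element (GAAA, any 2 bases, GAAA) in Isg15 and Ifit1. They mark matches to TTCNNNGAA, the core of the gamma-activated site, in Irf1 and Irf8. Isg15 encodes a ubiquitin-like modifier and its window (chr4:156200769-156201068, - strand) holds 3 overlapping matches. Ifit1 encodes a protein that binds viral RNA ends and its window (chr19:34640639-34640938, + strand) holds 2 matches on the opposite strand. Irf1 (chr11:53769764-53770063, + strand) and Irf8 (chr8:120736108-120736407, + strand) encode transcription factors, and their windows hold 1 and 2 matches to the gamma-site core. Another window of each of these genes holds no match. The 4 genes were picked for their matches and their direction, and they do not stand for all members. Tap1 and Ubd (higher in sham crypts) and Oasl1 and Irf7 (lower) hold neither core. Bst2 and Cxcl10 hold the response-element core and were higher in sham crypts.
Isg15: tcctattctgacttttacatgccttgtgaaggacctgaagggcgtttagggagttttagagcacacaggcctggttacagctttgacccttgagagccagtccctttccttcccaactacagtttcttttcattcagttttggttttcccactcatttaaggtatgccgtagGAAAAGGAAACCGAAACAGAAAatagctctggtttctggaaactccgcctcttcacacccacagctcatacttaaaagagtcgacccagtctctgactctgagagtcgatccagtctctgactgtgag
Ifit1: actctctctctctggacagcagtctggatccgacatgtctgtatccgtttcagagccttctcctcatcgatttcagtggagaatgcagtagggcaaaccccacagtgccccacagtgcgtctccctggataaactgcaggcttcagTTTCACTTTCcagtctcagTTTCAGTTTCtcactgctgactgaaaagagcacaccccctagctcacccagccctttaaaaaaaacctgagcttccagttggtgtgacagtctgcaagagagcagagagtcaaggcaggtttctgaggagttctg
Irf1: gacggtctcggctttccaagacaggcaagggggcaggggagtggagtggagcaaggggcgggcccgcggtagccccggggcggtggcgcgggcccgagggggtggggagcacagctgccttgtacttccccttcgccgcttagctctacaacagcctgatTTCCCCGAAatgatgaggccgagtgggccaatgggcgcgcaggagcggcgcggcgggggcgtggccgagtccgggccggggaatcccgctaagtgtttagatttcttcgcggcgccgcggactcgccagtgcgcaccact
Irf8: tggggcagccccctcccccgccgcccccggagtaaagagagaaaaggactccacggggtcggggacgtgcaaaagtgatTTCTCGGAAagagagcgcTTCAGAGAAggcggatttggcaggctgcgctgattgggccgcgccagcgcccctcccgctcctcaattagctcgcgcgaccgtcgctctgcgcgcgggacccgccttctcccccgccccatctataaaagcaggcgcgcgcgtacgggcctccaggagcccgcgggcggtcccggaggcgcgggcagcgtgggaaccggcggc

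A window was given for 31 of the 42 genes; Mx1, Mx2, Usp18, Oas2, Dhx58, Zbp1, Rtp4, Parp9, Parp14, Nlrc5 and Tap2 are named only. Both motifs were searched on both strands. The response-element core occurred in a window of 16 of the 31 genes, which is 51.6%, beside 3.99% of 27025 genes with a window. TTCNNNGAA occurred in 6 of the 31 genes, which is 19.4%, beside 9.55% of all genes with a window. The 6 were Bst2, Eif2ak2, Ifit2, Irf1, Irf8 and Oas1a, and in Bst2 a gamma-site match and a response-element match overlap. Of the 6 genes of interferon-gamma type and antigen processing, Cxcl10 alone held the response-element core among the 4 with a window (Cxcl9, Cxcl10, Ubd and Tap1). A match is a description of letters and was not tested as a binding site.

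**Figure D1:**
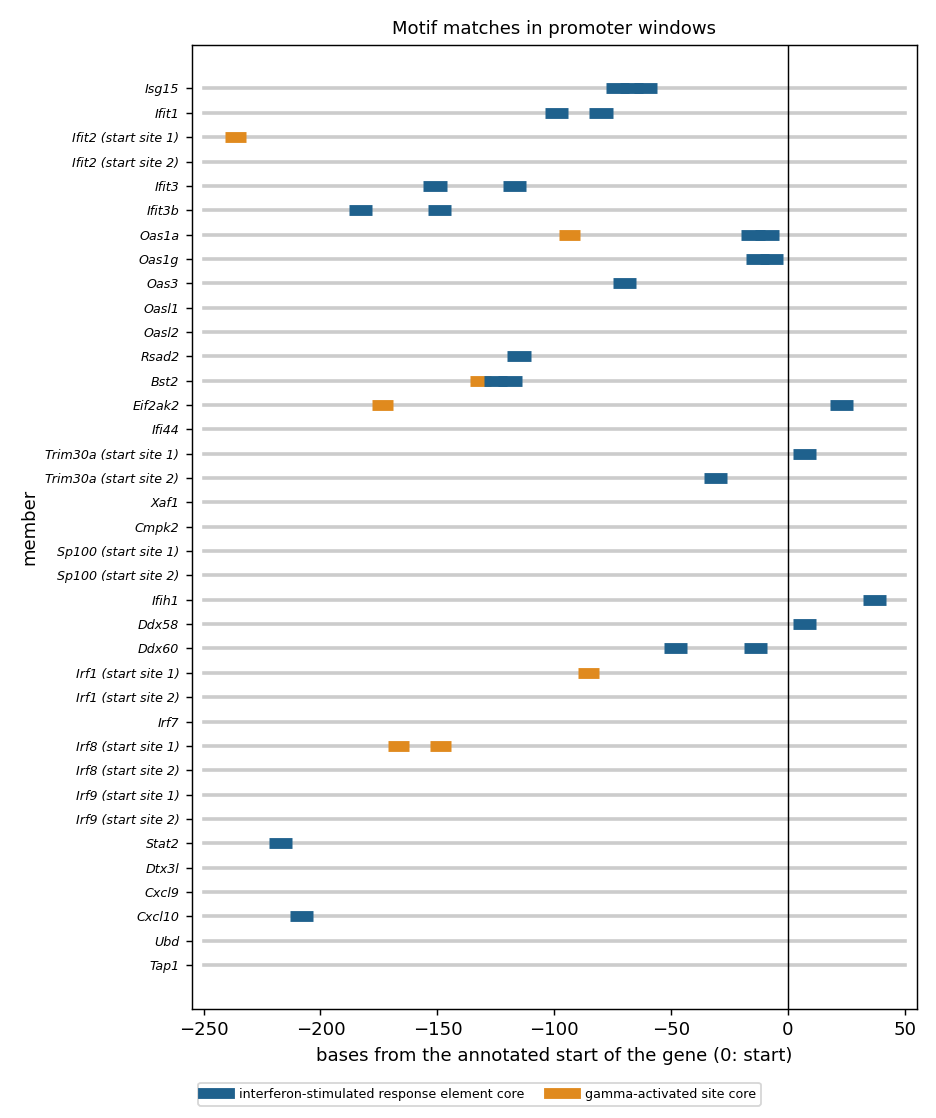
Position of each motif match in the promoter windows of the members, from 250 bases before to 50 bases after the annotated start (x axis, bases); each grey line is 1 window, blue marks the response-element core and orange the gamma-site core. Response-element matches appear in 17 of 37 windows and gamma-site matches in 6 windows, 1 of them Irf1 and 1 Irf8.

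The intestinal libraries held 26609686 to 43580020 counts and those labelled liver 12742629 to 42669857 counts. Levels are given as CPM, counts scaled to library size with TMM factors, and folds as log2 with standard errors. These errors were worked back from the edgeR test, as the absolute log2 fold change over the square root of the F value. A gene passed at an adjusted p under 0.05 over all genes tested. A change given as a bare number is a log2 fold change. The hepatectomy and the sham libraries carry separate running numbers, so anything that differed between the sets cannot be told apart from the operation. Genes with a count numbered 29786 to 30461 in hepatectomy libraries and 24420 to 26186 in sham libraries, and olfactory receptor genes summed to 131 to 164 CPM and 62.5 to 82.3 CPM. The predicted gene Gm10800 stood at 34419 to 39895 CPM in hepatectomy crypts and 717 to 1021 CPM in sham crypts, and at 49604 to 51224 CPM in hepatectomy IEC and 18322 to 23949 CPM in sham IEC. The part of these library differences in the results was not tested. In the libraries labelled liver, 7 gut epithelium markers summed to 4924 to 5421 CPM at day 0 and 3108 to 5777 CPM at day 10, and to 32.3 to 40.3 CPM at day 20. The 10 hepatocyte markers summed to 1049 to 3108 CPM at day 0, 2089 to 5368 CPM at day 10 and 81592 to 83843 CPM at day 20. The day 0 and day 10 libraries therefore go against their tissue label, and those groups are called by their day. Xist was at 23.7 to 32.6 CPM at day 0, 393 to 580 CPM at day 10 and 0.914 to 1.28 CPM at day 20. The Y-linked Ddx3y was at 15.2 to 30.1, 0.528 to 2.20 and 43.4 to 47.1 CPM on those days, so the 3 days also differ in sex markers. Day 10 replicate 3, the shallowest library, held olfactory receptor genes at 1107 CPM, against 389 and 444 CPM in the other day 10 libraries, and was over 1.5-fold above both other day 10 libraries for 11 members, and day 0 replicate 1 was that far below both others for 6. In bulk samples, fewer cells of a type and less RNA per cell cannot be told apart.

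Irf1, the transcription factor at the head of the interferon-gamma branch, had the highest level per kilobase of exon among the 42 members in 6 of the 7 groups. In crypts its mean level per kilobase was 49.8 ± 0.66 CPM after hepatectomy and 54.0 ± 2.15 CPM after sham (SD, n = 2 each). In IEC it was 36.2 ± 0.35 CPM after hepatectomy and 38.5 ± 0.65 CPM after sham (SD, n = 2 each). Tap1, a subunit of the peptide transporter that loads MHC class I, came second in both crypt groups, at 45.4 ± 0.28 CPM per kilobase after hepatectomy and 44.0 ± 2.88 after sham. Irf8, a factor best known from myeloid and B cells, came next there at 41.9 ± 0.35 and 34.0 ± 1.76 CPM per kilobase. In IEC the order behind Irf1 was Irf7 at 25.6 ± 1.58 and Tap2 at 23.1 ± 0.85 CPM per kilobase after hepatectomy, and Irf8 at 22.2 ± 0.02 and Oas1a at 21.3 ± 0.44 after sham. Irf7 is the factor that amplifies type I interferon production. At day 20, Bst2, which encodes the membrane protein tetherin that holds budding virus at the cell surface, led at 325 ± 6.70 CPM per kilobase, followed by Isg15 at 16.6 ± 0.93 and Rtp4 at 11.6 ± 0.95 (SD, n = 3). The levels of the 42 genes per kilobase spanned 0.174 to 54.0 CPM in sham crypts, with a median of 3.17, and 0.113 to 38.5 CPM in sham IEC, with a median of 4.05.

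Crypts and IEC differed in which members were high. In sham mice, 11 members were higher and 17 lower in crypts than in IEC, and 14 did not pass, so 66.7% of members passed beside 38.6% of all 18207 genes tested (19.3% in each direction). All 6 genes of interferon-gamma type and antigen processing were higher in crypts, with a median log2 fold change of 1.46. Of the 22 antiviral effectors 3 were higher and 13 lower, with a median of -0.60. Of the 5 sensors 3 were lower and none higher, Irf1 and Irf8 were higher and Irf7 lower, and no feedback gene passed. Scaled by total counts alone, which moves the median of all genes by 0.35, the split was 20 higher and 13 lower. Of the 28 calls, 23 held under that scaling and in every other alternative that tested the gene, 10 higher and 13 lower. A required log2 change of at least 1 is left out of this count. Cxcl9, Ifit3b, Rsad2 and Trim30a, among the 23, were too low for the stricter filter and were not tested there.

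Tap1 (chr17:34187553-34197225, + strand, mm10) stood at 252 and 229.8 CPM in sham crypts, against 87.1 and 84.6 CPM in sham IEC, a log2 fold change of 1.49 ± 0.05 (SE; edgeR adjusted p = 3.96e-10). Ubd (chr17:37193892-37196095, + strand), a ubiquitin-like protein that tags proteins for the proteasome, stood at 27.3 and 26.5 CPM in sham crypts, against 11.6 and 10.7 CPM in sham IEC, a log2 fold change of 1.27 ± 0.08 (SE; edgeR adjusted p = 7.22e-08). For both genes the crypt libraries lay far above the IEC libraries. Nlrc5, the transactivator of MHC class I genes, had 12.7 and 13.9 CPM in sham crypts, against 3.40 and 1.57 CPM in sham IEC, a log2 fold change of 2.41 ± 0.23 (SE; edgeR adjusted p = 3.80e-06). The chemokine genes Cxcl9 and Cxcl10, whose products draw T cells, were low, at 1.68 and 2.02 CPM and 1.12 and 1.05 CPM in sham crypts, against 0.373 and 0.307 CPM and 0.522 and 0.269 CPM in sham IEC. Cxcl9 passed at a log2 fold change of 2.43; Cxcl10, at 1.44, lost its call without sham IEC replicate 2 (1.05), without either sham crypt replicate (1.39 and 1.48) and in DESeq2. Irf8 (chr8:120736358-120756694, + strand) had 249 and 231 CPM in sham crypts, against 156 and 156 CPM in sham IEC, a log2 fold change of 0.62 ± 0.05 (SE; edgeR adjusted p = 1.25e-06).

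On the other side stood the viral RNA binders, sensors and Irf7. Ifit1 (chr19:34640871-34650009, + strand) had 7.44 and 6.86 CPM in sham crypts, against 20.2 and 18.8 CPM in sham IEC, a log2 fold change of -1.45 ± 0.09 (SE; edgeR adjusted p = 7.88e-08). Irf7 (chr7:141262706-141266481, - strand) had 33.8 and 30.2 CPM in sham crypts, against 65.9 and 66.1 CPM in sham IEC, a log2 fold change of -1.05 ± 0.07 (SE; edgeR adjusted p = 1.41e-07). Its exons overlap those of Phrf1 on the opposite strand, and no source used here says whether counting used strand. Exons of 16 of the 42 members overlap another annotated gene, among them on the opposite strand those of Tap1 (with Psmb9, a proteasome gene), Cxcl10 (with Art3), Parp9 and Dtx3l (with each other), Irf1, Tap2, Nlrc5, Oasl1, Usp18, Dhx58 and Eif2ak2. On the same strand this holds for Irf9, Parp14, Rtp4 and Sp100, and reads of such pairs could be shared. Ddx60, a helicase that assists RNA sensing, had 6.47 and 5.85 CPM in sham crypts, against 17.1 and 15.7 CPM in sham IEC, a log2 fold change of -1.42 ± 0.11 (SE; edgeR adjusted p = 5.58e-07). The closely related pair Ifit3 and Ifit3b was lower in crypts at -1.47 and -1.34; 51.2% of Ifit3's and 45.0% of Ifit3b's 50-base stretches are shared, so reads could be split between them. Oasl1 and Oasl2, relatives of the 2′-5′-oligoadenylate synthetases, were lower at -0.84 and -0.42. Rsad2 (viperin), Rtp4 and Sp100 were lower at -1.27, -1.05 and -1.01. Of the effectors, Ifit2 (1.47), Ifi44 (0.89) and Bst2 (0.87) were higher in crypts, so Ifit2 was higher where Ifit1, Ifit3 and Ifit3b were lower. Oas1a (0.06), Mx1 (0.09) and Mx2 (0.62) did not pass; Oas1g, which shares 45.7% of its stretches, mostly with Oas1a, passed at -0.24, a call lost without any 1 of 6 libraries.

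**Figure D2:**
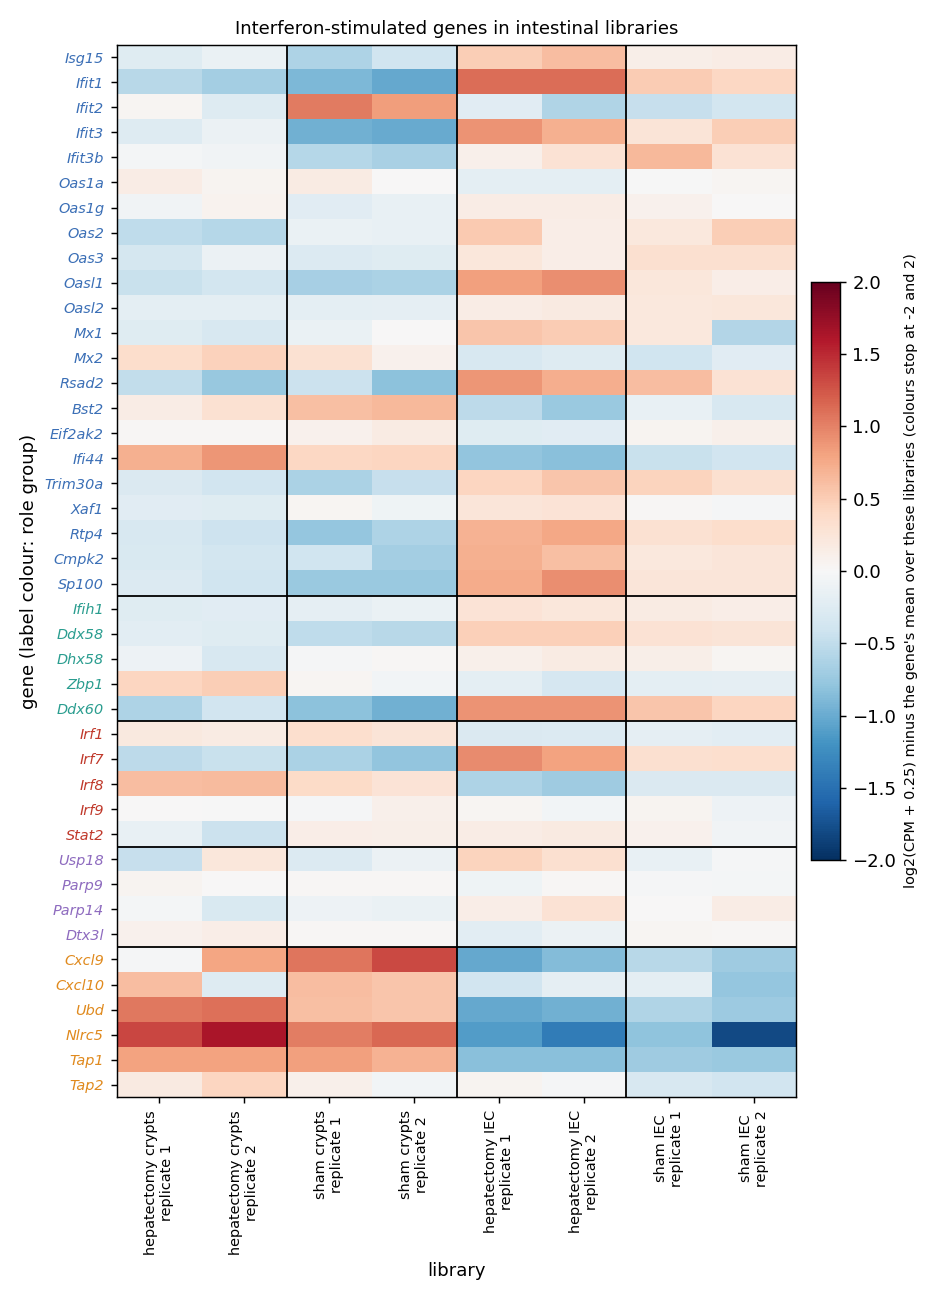
Level of the 42 members in the 8 intestinal libraries, as log2(CPM + 0.25) minus each gene's mean over the libraries (rows by role, columns by library; colours stop at -2 and 2). Tap1, Ubd and Nlrc5 are above their mean in the 4 crypt libraries (Tap1 249.9 and 247.7 CPM in hepatectomy crypts, 252 and 229.8 CPM in sham crypts), and most effectors and sensors are above theirs in IEC.

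After hepatectomy, 14 members were higher and 21 lower in crypts than in IEC, with 5 of the 6 genes of interferon-gamma type and antigen processing higher and 14 of 22 effectors lower. That is 83.3% of members beside 51.9% of all genes (26.3% higher, 25.6% lower); scaled by total counts the split was 17 and 14, with the all-gene median moved by 0.25. Irf8 had 294 and 297 CPM in hepatectomy crypts, against 124 and 116 CPM in hepatectomy IEC, a log2 fold change of 1.30 ± 0.05 (SE; edgeR adjusted p = 6.41e-10). Ubd had 37.5 and 38.5 CPM in hepatectomy crypts, against 8.67 and 9.07 CPM in hepatectomy IEC, a log2 fold change of 2.10 ± 0.08 (SE; edgeR adjusted p = 3.51e-10). Tap1, Ifit1, Irf7 and Oasl1 stood at 1.64, -1.77, -1.37 and -1.29. Ifit3 was at -1.05, while Ifit3b (-0.30) and Oas1g (-0.15) did not pass and Oas1a did (0.29). Mx1 (-1.08) and Mx2 (0.84) passed in opposite directions, but both calls were lost without 1 library: Mx1 without any 1 of the 4 hepatectomy libraries, Mx2 without either hepatectomy IEC replicate or without hepatectomy crypt replicate 2. Tap2, at 0.29, fell to 0.17 without hepatectomy crypt replicate 2, and there Dhx58, at -0.36, stood at -0.24 and Parp14, at -0.39, at -0.25.

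Of 9 interferon receptor and kinase genes, 5 were lower and none higher in sham crypts than in sham IEC, and 8 were lower and none higher in hepatectomy crypts than in hepatectomy IEC. Over all genes, 19.3% were lower in sham crypts and 25.6% in hepatectomy crypts. By total counts 3 were lower and 3 higher in sham crypts, and 6 lower and none higher in hepatectomy crypts. Ifnar2, a chain of the type I receptor, had 5.32 and 5.27 CPM in sham crypts, against 12.1 and 11.2 CPM in sham IEC, a log2 fold change of -1.14 ± 0.10 (SE; edgeR adjusted p = 2.27e-06). Ifngr2 (-0.58), a chain of the interferon gamma receptor, Il10rb (-0.49), shared by the type III receptor, and Jak2 (-0.76) were also lower in sham crypts. Exons of Ifnar2 and of Il10rb both overlap those of Gm21970, a protein-coding gene on the same strand, so reads could be shared. Of 10 genes that relay the signal, Tmem173, which encodes the DNA-sensing adaptor STING, was higher in sham crypts (1.01), and Ticam1 (-0.42), Mavs (-0.19) and Tbk1 (-0.18) were lower. The Mavs call was lost without any 1 of 3 sham libraries, the Tbk1 call was lost without several single libraries, and by total counts these 2 stood at 0.17 and 0.18. Of 5 inhibitors, Socs1 (1.43) and Socs3 (0.55) were higher and the phosphatase gene Ptpn6 (-0.72) lower. After hepatectomy the crypts stood at -1.73 for Ifnar2, -1.00 for Ifngr2, -1.17 for Il10rb and -0.47 for Ifngr1. The relay genes Tmem173, Mavs, Tbk1 and Ticam1 then stood at 1.71, -0.65, -0.52 and -0.30, and the inhibitors Socs3 and Ptpn6 at 0.28 and -1.25, with Socs1 at 10.0 and 13.9 CPM in hepatectomy crypts, against 4.27 and 4.21 CPM in hepatectomy IEC. The Socs3 call was lost without hepatectomy IEC replicate 1 (0.25) and without hepatectomy crypt replicate 2 (0.26).

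Markers of several cell types differed between the fractions. The sum of 9 enterocyte markers was 4260 to 4552 CPM in sham crypts and 25406 to 26000 CPM in sham IEC, and all 9 were lower in crypts. The sum of 6 Paneth and goblet cell markers was 2740 to 2854 CPM in sham crypts and 2911 to 3022 CPM in sham IEC. The sum of 9 macrophage markers was 44.1 to 45.3 CPM in sham crypts and 14.8 to 15.8 CPM in sham IEC, with up to 4 of the 9 at 0 in a library. Of that sum, Cd14 made 42.4 to 43.2 CPM in sham crypts and 12.5 to 12.98 CPM in sham IEC. The other 8, split off after the values were seen, summed to 1.77 to 2.07 CPM in sham crypts and 2.32 to 2.86 CPM in sham IEC, and of the 4 macrophage markers tested Cd14 alone passed. The sum of 12 T and NK cell markers was 128 to 129 CPM in sham crypts and 128 to 130 CPM in sham IEC, with none of the 12 at 0. The sum of 9 B and plasma cell markers was 123 to 138 CPM in sham crypts and 507 to 521 CPM in sham IEC, also with none at 0. After hepatectomy Cd14 was 23.6 to 24.4 CPM in crypts and 4.40 to 4.75 CPM in IEC, the other 8 macrophage markers summed to 1.24 to 1.35 and 2.01 to 3.07 CPM, and the T and NK cell sum 37.0 to 37.7 and 89.2 to 89.5 CPM. The part of these markers in the crypt and IEC differences was not tested. Members whose windows held the response-element core were 2 higher and 11 lower of 16 in sham crypts; those without it were 7 higher and 5 lower of 15. Over all tested genes with a window, 21.8% with the core were higher and 26.6% lower, beside 21.1% and 21.8% of those without it. The split ran the other way between day 10 and day 0. There 6 of the 16 members with the core fell, and 11 of the 15 without it, and 0 of either rose. Over all tested genes with a window, 27.0% with the core and 19.0% without it fell at day 10.

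Hepatectomy moved members in IEC by less than 2-fold. Of the 42, 11 rose and 6 fell after hepatectomy in IEC, and 25 did not pass; 40.5% of members passed beside 37.8% of all genes (19.5% risen, 18.3% fallen), a share near the background. Among the effectors 7 rose and 3 fell, and of the 5 sensors 2 rose and none fell. Scaled by total counts alone, which lowers the median of all genes by 0.21, 4 rose and 13 fell, so the balance of directions depends on the scaling. The rises of Ifit1, Irf7, Oasl1 and Sp100 and the falls of Irf8 and Eif2ak2 held under that scaling and in every other alternative apart from a required log2 change of at least 1, and 9 of the 17 calls were lost without at least 1 library.

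Irf7 stood at 101 and 92.6 CPM in hepatectomy IEC, against 65.9 and 66.1 CPM in sham IEC, a log2 fold change of 0.55 ± 0.07 (SE; edgeR adjusted p = 3.36e-05). Oasl1, whose product restrains Irf7 translation in mice, stood at 42.7 and 46.1 CPM in hepatectomy IEC, against 28.1 and 26.3 CPM in sham IEC, a log2 fold change of 0.71 ± 0.07 (SE; edgeR adjusted p = 9.06e-06); Oasl2 did not pass (-0.06). Both hepatectomy libraries lay above both sham libraries for Irf7 and Oasl1, by more than the spread within either group. Ifit1 stood at 31.1 and 30.9 CPM in hepatectomy IEC, against 20.2 and 18.8 CPM in sham IEC, a log2 fold change of 0.67 ± 0.08 (SE; edgeR adjusted p = 3.95e-05). Sp100, a nuclear body protein, stood at 26.0 and 29.8 CPM in hepatectomy IEC, against 18.4 and 18.5 CPM in sham IEC, a log2 fold change of 0.60 ± 0.09 (SE; edgeR adjusted p = 1.83e-04). Cmpk2, a mitochondrial nucleotide kinase gene, and Tap2, the partner of Tap1, rose by 0.43 and 0.37. Ddx60 rose by 0.41 and lost its call without sham IEC replicate 2 (0.33). Irf8 stood at 124 and 116 CPM in hepatectomy IEC, against 156 and 156 CPM in sham IEC, a log2 fold change of -0.38 ± 0.05 (SE; edgeR adjusted p = 1.02e-04).

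Close relatives were not called alike in IEC, and the differences between them were not tested. Ifit3 rose by 0.45 and Ifit3b stood at -0.33, not past the threshold; the Ifit3 call was lost without sham IEC replicate 1 (0.32), without hepatectomy IEC replicate 1 (0.34) and without sham crypt replicate 1 (0.41). Oas1a fell by 0.22 with Oas1g at 0.11, and the Oas1a call was lost without any 1 of the 4 IEC libraries. Mx1 (0.85) and Mx2 (0.03) did not pass. Tap1 (-0.11) and Irf1 (-0.09) also did not pass.

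In IEC, 7 of the 9 receptor and kinase genes rose after hepatectomy and none fell, beside 19.5% of all genes risen and 18.3% fallen. By total counts 4 rose and 1 fell. The overlap of Il10rb and Ifnar2 exons with Gm21970 holds here too. Il10rb stood at 150.4 and 149.6 CPM in hepatectomy IEC, against 81.6 and 81.4 CPM in sham IEC, a log2 fold change of 0.88 ± 0.05 (SE; edgeR adjusted p = 6.02e-08). Ifnar2 stood at 21.0 and 21.1 CPM in hepatectomy IEC, against 12.1 and 11.2 CPM in sham IEC, a log2 fold change of 0.85 ± 0.09 (SE; edgeR adjusted p = 1.19e-05). Ifngr2 rose by 0.48 and Ifnlr1, the specific chain of the type III receptor, by 0.79. Among the relay genes Tmem173 (-1.37) and Mb21d1, which encodes the DNA sensor cGAS (-1.08), fell, while Mavs (0.47) and the kinase gene Tbk1 (0.49) rose; 3 of 10 rose and 3 fell. Of the inhibitors, Socs3 (0.88) and Ptpn6 (0.49) rose and Ptpn2 (-0.27) fell. The sum of 9 enterocyte markers was 57125 to 60830 CPM in hepatectomy IEC and 25406 to 26000 CPM in sham IEC. Of 6 Paneth and goblet cell markers 5 fell. Their sum was 1876 to 1927 CPM in hepatectomy IEC and 2911 to 3022 CPM in sham IEC. The B and plasma cell sum was 125 to 131 CPM in hepatectomy IEC and 507 to 521 CPM in sham IEC, and the T and NK cell sum 89.2 to 89.5 and 128 to 130 CPM, with no marker of either list at 0. The part of these markers in the IEC changes was not tested.

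In crypts, 14 members rose and 4 fell after hepatectomy, and 24 did not pass. That is 42.9% of members, beside 37.5% of all genes (19.2% risen, 18.3% fallen), also near the background. Of 22 effectors 7 rose and 2 fell, of 5 sensors 3 rose, of 5 transcription factors 2 rose and 1 fell, and of the 6 genes of interferon-gamma type 2 rose and 1 fell; no feedback gene passed. Scaled by total counts alone, which lowers the median of all genes by 0.32, 1 rose and 18 fell. The rise of Ifit3 and the falls of Ifit2, Bst2 and Stat2 held under that scaling and in every other alternative apart from a required log2 change of at least 1, which left 1 fall and no rise. With that exception, the rises of Ubd, Zbp1, Irf8, Ddx58 and Sp100 held in every alternative that kept the TMM or RLE scaling; the other 9 of the 18 calls were lost without at least 1 library.

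Ifit2 stood at 2.47 and 1.96 CPM in hepatectomy crypts, against 5.17 and 4.48 CPM in sham crypts, a log2 fold change of -1.13 ± 0.19 (SE; edgeR adjusted p = 5.20e-04). Its relative Ifit3 stood at 3.35 and 3.73 CPM in hepatectomy crypts, against 1.97 and 1.89 CPM in sham crypts, a log2 fold change of 0.88 ± 0.17 (SE; edgeR adjusted p = 0.00137). Ifit3b, at 0.71, did not pass. Ifit2 and Ifit3 thus moved in opposite directions. Stat2, part of the complex that binds the response element, stood at 18.7 and 15.3 CPM in hepatectomy crypts, against 22.8 and 22.5 CPM in sham crypts, a log2 fold change of -0.42 ± 0.09 (SE; edgeR adjusted p = 0.00463). Ubd stood at 37.5 and 38.5 CPM in hepatectomy crypts, against 27.3 and 26.5 CPM in sham crypts, a log2 fold change of 0.50 ± 0.07 (SE; edgeR adjusted p = 1.46e-04). Zbp1, a sensor of left-handed nucleic acid that can trigger necroptosis, stood at 31.9 and 33.3 CPM in hepatectomy crypts, against 24.4 and 22.9 CPM in sham crypts, a log2 fold change of 0.46 ± 0.07 (SE; edgeR adjusted p = 3.45e-04). Irf8, Ddx58 (RIG-I) and Sp100 rose by 0.30, 0.32 and 0.42. Under total counts Ddx58 and Irf8 stood at -0.01 and -0.02.

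Oasl1 rose by 0.25, and Oasl2 (-0.00) did not pass. Under total counts Oasl1 stood at -0.07. The Oasl1 call was lost without either sham crypt replicate (0.24 and 0.26) or without hepatectomy crypt replicate 2 (0.20). Oas1a (0.02), Oas1g (0.19), Mx1 (-0.31) and Mx2 (0.25) did not pass. Cxcl9 fell by 0.88 on 22 to 92 counts a crypt library, a call lost without any 1 of 7 libraries, and it stood at -0.48 without hepatectomy crypt replicate 1. Irf7 rose by 0.23 and lost its call at 0.15 without sham crypt replicate 2; Tap2 rose by 0.29 and lost its call at 0.16 without hepatectomy crypt replicate 2. Tap1 (0.05) and Irf1 (-0.12) did not pass.

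Of the upstream genes in crypts, 2 receptor or kinase genes rose and 2 fell of 9, 2 relay genes rose and 2 fell of 10, and 1 inhibitor rose of 5. Over all genes, 19.2% rose and 18.3% fell. By total counts 1 receptor or kinase gene rose and 5 fell, no relay gene rose and 8 fell, and 1 inhibitor rose and 4 fell. Jak2 stood at 21.7 and 17.2 CPM in hepatectomy crypts, against 11.5 and 11.6 CPM in sham crypts, a log2 fold change of 0.74 ± 0.11 (SE; edgeR adjusted p = 1.83e-04). Socs3, a feedback inhibitor of JAK kinases, rose by 0.61, the relay genes Irf2 and Ticam1 rose by 0.37 and 0.29, and Il10rb rose by 0.20. Tmem173 fell (-0.67), as did Ikbke (-0.22). Falls of Ifnar1 (-0.24) and Ifngr1 (-0.15) were lost without several single libraries; Ifnar1 stood at -0.13 without sham crypt replicate 1 and Ifngr1 at -0.10 without hepatectomy crypt replicate 1. The T and NK cell marker sum was 37.0 to 37.7 CPM in hepatectomy crypts and 128 to 129 CPM in sham crypts, and the B and plasma cell sum 22.8 to 26.1 and 123 to 138 CPM, with no marker of either list at 0. The sum of 4 crypt stem cell markers was 1035 to 1044 CPM in hepatectomy crypts and 2232 to 2314 CPM in sham crypts, and the enterocyte sum 9656 to 9836 and 4260 to 4552 CPM. All 6 Paneth and goblet cell markers fell. Their sum was 772 to 783 CPM in hepatectomy crypts and 2740 to 2854 CPM in sham crypts. The part of these markers in the crypt changes was not tested.

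**Figure D3:**
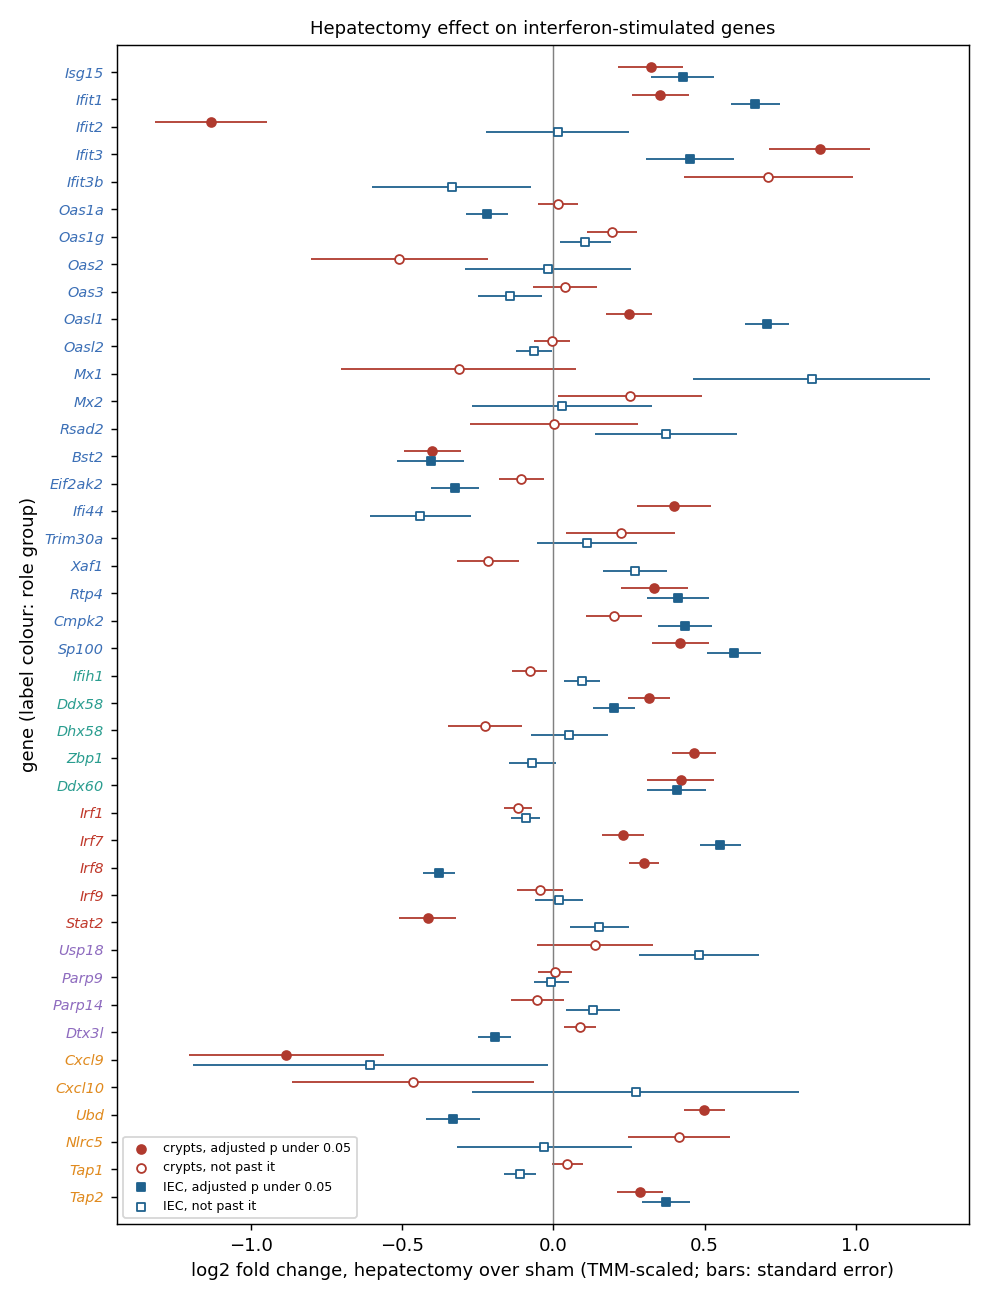
Log2 fold change of hepatectomy over sham for each member (x axis; bars are standard errors), in crypts (red circles) and IEC (blue squares); filled points passed at an adjusted p under 0.05. Most values lie between -1 and 1, with Ifit2 in crypts at -1.13, and Irf8 and Ubd are on opposite sides of 0 in the fractions (0.30 and 0.50 in crypts, -0.38 and -0.33 in IEC).

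The response to hepatectomy differed between the fractions for 10 members when the difference itself was tested in edgeR, 23.8% beside 19.2% of all genes (9.15% higher in crypts, 10.1% higher in IEC). For 5 the log2 change was higher in crypts and for 5 it was higher in IEC; by total counts the split was 4 and 5, with the all-gene median lowered by 0.11. Irf8 differed by 0.68 ± 0.07 (SE; edgeR adjusted p = 6.62e-05), Ubd by 0.83 ± 0.11 (SE; edgeR adjusted p = 3.42e-04) and Zbp1 by 0.53 ± 0.11 (SE; edgeR adjusted p = 0.00434). These 3 held in every alternative, total counts included, apart from a required log2 change of at least 1. Irf8 and Ubd each rose in crypts and fell in IEC; the IEC fall of Ubd (-0.33) was lost without sham IEC replicate 1 (-0.28) or without hepatectomy IEC replicate 1 (-0.31). Ifi44 differed by 0.84 ± 0.21 (SE; edgeR adjusted p = 0.0142) and kept its call without any single library, but not in DESeq2 (0.85, adjusted p = 0.052). The change was lower in crypts for Stat2 (-0.57) and Oasl1 (-0.46), and single libraries ended both calls: Stat2 without sham IEC replicate 2 (-0.49) or without sham crypt replicate 1 (-0.51), Oasl1 without sham IEC replicate 2 (-0.40). The relatives Ifit3 (0.43) and Ifit3b (1.05), Oas1a (0.23) and Oas1g (0.09), Mx1 (-1.17) and Mx2 (0.23), and Oasl2 (0.06) did not pass.

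The test of the difference also passed for receptor genes. For 6 of 9 receptor and kinase genes the change was lower in crypts than in IEC, and for none was it higher. Over all genes, 10.1% had the lower change in crypts. Il10rb and Ifnar2 both overlap Gm21970, as given above. Il10rb differed by -0.68 ± 0.07 (SE; edgeR adjusted p = 6.24e-05), Ifngr2 by -0.42 ± 0.07 (SE; edgeR adjusted p = 0.00115), Ifnar1 by -0.53 ± 0.11 (SE; edgeR adjusted p = 0.0053) and Ifngr1 by -0.34 ± 0.07 (SE; edgeR adjusted p = 0.00649). Ifnar2 (-0.59) and Ifnlr1 (-0.77) also differed; Ifnar2 lost its call without sham crypt replicate 1 (-0.54), and Ifnlr1 stood at -0.49 there. Among the relay genes Mavs (-0.46) and Tbk1 (-0.34) had the lower change in crypts, and Irf2 (0.31) and Mb21d1 (cGAS; 0.71) were on the other side. Ptpn6 was the inhibitor that differed (-0.53).

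Of the 42 members, 22 fell and 1 rose at day 10 of the DSS series relative to day 0, and 19 did not pass. That is 54.8% of members beside 43.6% of all 16694 genes tested (24.7% risen, 18.8% fallen). The median member changed by -0.64, beside 0.10 over all genes. All 6 genes of interferon-gamma type and antigen processing fell, with a median of -2.11. Of the rest, 9 of 22 effectors fell and 1 rose, 1 of 5 sensors fell, 3 of 5 transcription factors fell and 3 of 4 feedback genes fell. By total counts 16 fell and 1 rose. Without day 10 replicate 3, 30 fell.

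Ubd stood at 0.575, 0.57 and 1.16 CPM at day 10, against 31.8, 23.7 and 22.9 CPM at day 0, a log2 fold change of -5.12 ± 0.29 (SE; edgeR adjusted p = 1.44e-06). Tap1 stood at 34.2, 33.2 and 47.4 CPM at day 10, against 331, 259.9 and 248 CPM at day 0, a log2 fold change of -2.87 ± 0.18 (SE; edgeR adjusted p = 3.02e-06). For Ubd and Tap1 the spread among the day 10 libraries was small beside the gap between the days. Irf1 (chr11:53770014-53778374, + strand) stood at 114, 97.9 and 114 CPM at day 10, against 423, 314 and 301 CPM at day 0, a log2 fold change of -1.67 ± 0.17 (SE; edgeR adjusted p = 5.78e-05). Bst2 (chr8:71534255-71537456, - strand) stood at 9.36, 10.2 and 14.9 CPM at day 10, against 64.0, 47.6 and 49.5 CPM at day 0, a log2 fold change of -2.23 ± 0.20 (SE; edgeR adjusted p = 2.26e-05). Tap2, Irf8, Cxcl9 and Parp9, an ADP-ribosylation gene that partners Dtx3l, fell at -1.64, -1.33, -1.97 and -1.61.

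The 1 member that rose at day 10 was Oas2, an oligoadenylate synthetase, at 2.15, 3.22 and 2.60 CPM, against 0.808, 0.892 and 0.694 CPM at day 0, a log2 fold change of 1.73 ± 0.34 (SE; edgeR adjusted p = 0.00381). The stricter filter on low levels leaves Oas2 out. Its relatives Oas1a and Oasl2 fell (-0.67 and -1.34), and Oas1g (-0.46) and Oasl1 (-0.32) did not pass. Ifit1 fell by 1.15, while Ifit3 (-0.01), Ifit3b (-0.68), Mx1 (0.96) and Mx2 (-0.55), which include genes raised in day 10 replicate 3, did not pass. Irf7 did not pass either (-0.14). Upstream, 2 of 9 receptor and kinase genes fell (Ifnar2 -0.47 and Ifngr1 -0.56) and none rose, beside 18.8% of all genes fallen and 24.7% risen. By total counts none of the 9 fell. Of 12 relay genes 3 fell, which were Tmem173 (-1.67), the adaptor gene Myd88 (-0.58) and Tbk1 (-0.57). By total counts 1 relay gene fell and 1 rose. The Tbk1 call was lost without day 10 replicate 2 (-0.40). Tlr7, a receptor for single-stranded RNA, was called as risen on 2, 7 and 10 counts at day 10, against 0 in each day 0 library, and no fold is given. The feedback inhibitor Socs1 stood at 4.33, 5.22 and 8.15 CPM at day 10, against 27.7, 22.1 and 22.7 CPM at day 0, a log2 fold change of -2.04 ± 0.25 (SE; edgeR adjusted p = 3.06e-04). Pias1 fell at -0.43, a call lost without several single libraries.

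**Figure D4:**
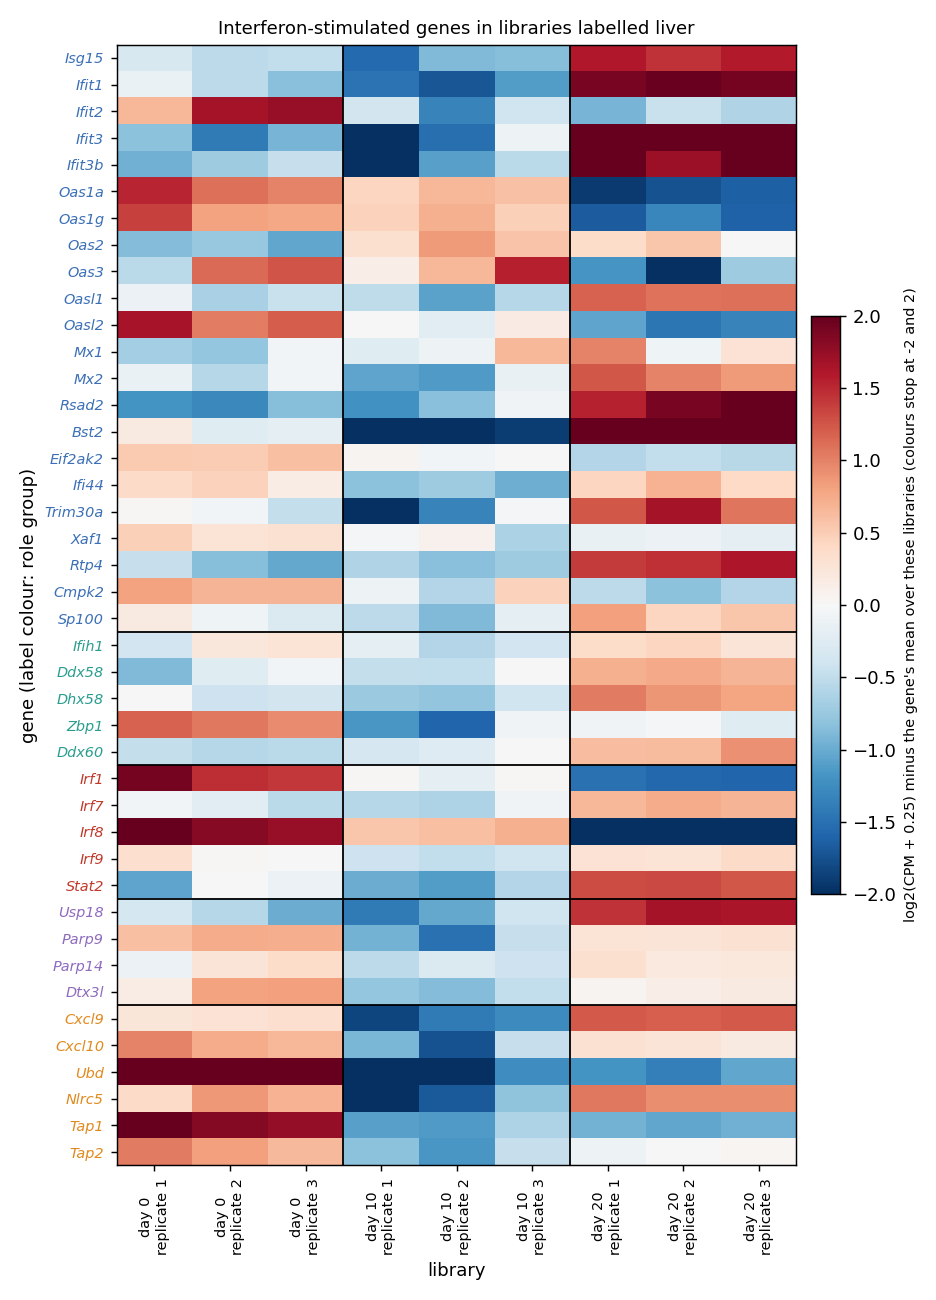
Level of the 42 members in the 9 libraries labelled liver, as log2(CPM + 0.25) minus each gene's mean over these libraries (rows by role, columns by library; colours stop at -2 and 2). Ubd, Tap1 and Irf1 are highest at day 0 (Irf1 423, 314 and 301 CPM), and Bst2, Ifit1, Ifit3 and Isg15 are highest at day 20 (Bst2 299, 287 and 296 CPM).

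The crypt comparison and the day 10 comparison share no library, and the calls of each member can be set side by side. All 11 members higher in sham crypts than in sham IEC fell at day 10, and these were 11 of the 22 members that fell. Of all 2953 genes higher in sham crypts and tested in both tables, 48.3% fell at day 10. Of the 17 members lower in sham crypts, 4 fell at day 10, none rose and 13 did not pass. Over all 3132 genes lower in sham crypts, 11.5% fell and 28.8% rose. The sum of 4 crypt stem cell markers was 5433, 3005 and 8486 CPM in day 10 replicates 1, 2 and 3, and 8673 to 9204 CPM at day 0. The sum of 9 enterocyte markers was 908, 903 and 4333 CPM in those replicates and 649 to 694 CPM at day 0, and 7 of the 9 rose. At day 20 the same 9 summed to 19868 to 21147 CPM, with gut epithelium markers at 32.3 to 40.3 CPM. In the libraries labelled liver this list is therefore not particular to enterocytes. Hepatocyte markers summed to 2365, 2089 and 5368 CPM in day 10 replicates 1, 2 and 3. The sum of 6 Paneth and goblet cell markers was 26371, 21473 and 4320 CPM in those replicates and 15318 to 18215 CPM at day 0. Day 10 replicate 3 thus stood apart in these sums. Of 9 dendritic cell markers, which include the member Bst2, 7 rose, and of 7 endothelial markers 6 rose, beside 24.7% of all genes. Their levels were low and highest in day 10 replicate 3. The 8 dendritic markers other than Bst2 summed to 5.17, 5.18 and 19.1 CPM at day 10 and 1.99 to 3.28 CPM at day 0. The endothelial markers summed to 8.55, 7.02 and 24.2 CPM at day 10 and 4.71 to 6.73 CPM at day 0. Among 9 macrophage markers 3 rose and Cd14 alone fell; Cd14 stood at 30.1 to 47.2 CPM at day 10 and 73.8 to 92.5 CPM at day 0, and the other 8 summed to 7.67 to 22.8 CPM at day 10 and 5.34 to 6.39 CPM at day 0. The sum of 11 T and NK cell markers was 3.34, 3.88 and 20.6 CPM in day 10 replicates 1, 2 and 3. At day 0 it was 9.71 to 10.2 CPM. Genes of this list went opposite ways. Gzma was at 0.07 to 0.471 CPM at day 10 and 3.45 to 4.22 CPM at day 0. Ptprc was at 2.32 to 11.5 CPM at day 10 and 0.545 to 1.07 CPM at day 0. Up to 3 of the 11 were at 0 in a day 10 library. The part of these markers was not tested.

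**Figure D5:**
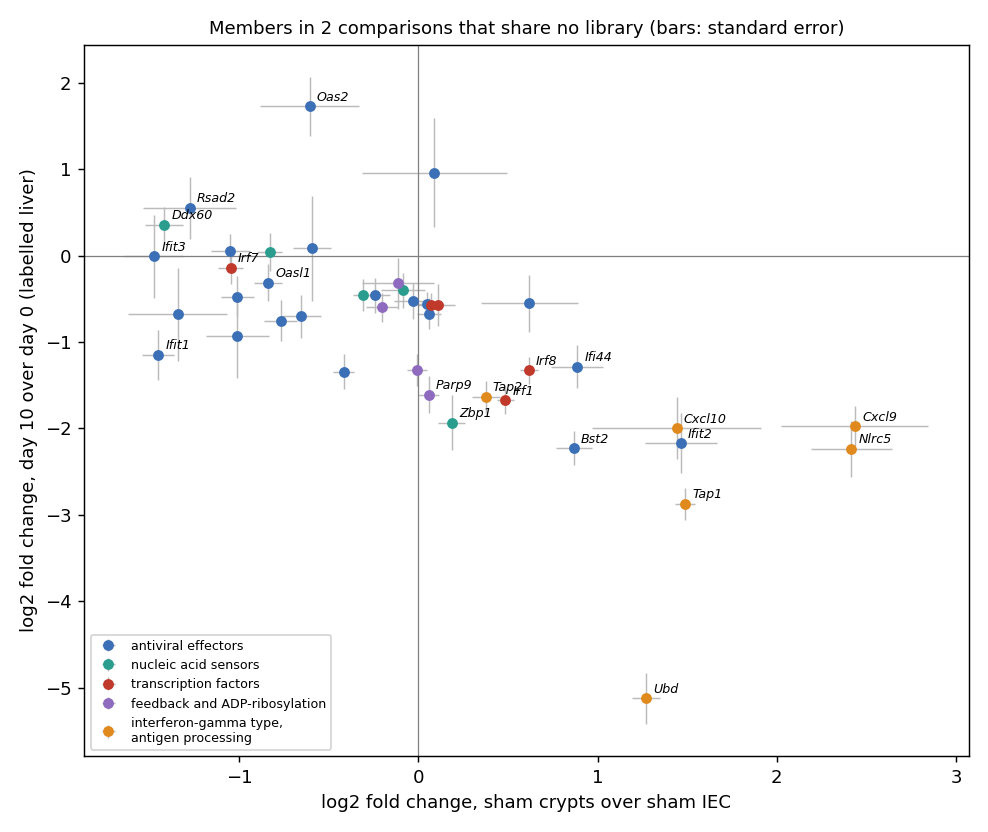
Log2 fold change of sham crypts over sham IEC (x axis) against that of day 10 over day 0 in the libraries labelled liver (y axis) for the 42 members, coloured by role, with standard errors as bars. Ubd (1.27 and -5.12), Tap1 (1.49 and -2.87), Nlrc5 (2.41 and -2.23) and Cxcl9 (2.43 and -1.97) lie at the lower right, and Ifit3 (-1.47 and -0.01) lies near 0 on the y axis.

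Day 20 differed from day 0 in 34 of the 42 members, with 19 higher and 15 lower, 81.0% beside 71.4% of all genes (33.3% higher, 38.1% lower). The day 20 libraries held hepatocyte markers and almost no gut epithelium markers, so the difference in material cannot be told apart from the day. By total counts, which lower the median of all genes by 0.90, 9 were higher and 21 lower; Bst2, Ifit1, Ifit3, Ifit3b, Isg15, Oasl1, Rsad2, Rtp4 and Usp18 were higher under that scaling too. Bst2 stood at 299, 287 and 296 CPM at day 20, against 64.0, 47.6 and 49.5 CPM at day 0, a log2 fold change of 2.45 ± 0.19 (SE; edgeR adjusted p = 8.95e-08). Irf8 stood at 10.9, 12.2 and 11.8 CPM at day 20, against 328, 246 and 233 CPM at day 0, a log2 fold change of -4.53 ± 0.18 (SE; edgeR adjusted p = 2.13e-10). Irf1 stood at 39.7, 37.5 and 37.1 CPM at day 20, against 423, 314 and 301 CPM at day 0, a log2 fold change of -3.18 ± 0.18 (SE; edgeR adjusted p = 2.69e-09). Ubd, Tap1 and Oas1a were lower at -4.43, -2.92 and -3.06. Of the relatives, Ifit3 (3.62) and Ifit3b (3.06) were higher together, Oas1a and Oas1g (-2.61) lower together, Oasl1 (1.55) and Oasl2 (-2.64) on opposite sides, and Mx2 (1.35) higher with Mx1 (1.38) not past the threshold.

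Upstream, Ifnlr1, which confines type III interferon responses largely to epithelia, had 1, 1 and 3 counts at day 20, against 121, 284 and 276 counts at day 0; at day 10 it had 126, 68 and 69. Ifnar2 went the other way, with 83.8, 81.3 and 82.4 CPM at day 20, against 10.1, 9.62 and 9.27 CPM at day 0, a log2 fold change of 3.09 ± 0.14 (SE; edgeR adjusted p = 3.95e-10). Ifngr1 (-2.84) and Ifngr2 (-2.25) were lower. Of the 9 receptor and kinase genes 3 were higher and 4 lower, beside 33.3% and 38.1% of all genes. Scaled by total counts, 1 of them was higher and 6 lower. The DNA sensor genes Mb21d1 (-5.15) and Tmem173 (-2.87) were lower, and Mavs (1.34) and Irf2 (0.74) were higher; by total counts Irf2 stood at -0.17. Of the inhibitors Socs1 (-4.08), Ptpn2 (-1.82) and Socs3 (-1.20) were lower and Ptpn6 (0.81) higher.

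At day 20, relative to day 10, 27 members were higher and 8 lower, 83.3% beside 71.1% of all genes (30.8% higher, 40.3% lower), with a member median of 0.99 beside -0.21 over all genes. By total counts, which lower the median of all genes by 0.96, the split was 12 and 11. Bst2 stood at 299, 287 and 296 CPM at day 20, against 9.36, 10.2 and 14.9 CPM at day 10, a log2 fold change of 4.68 ± 0.22 (SE; edgeR adjusted p = 7.97e-10). Ifit1 stood at 10.8, 11.4 and 10.8 CPM at day 20, against 0.818, 0.652 and 1.11 CPM at day 10, a log2 fold change of 3.69 ± 0.29 (SE; edgeR adjusted p = 1.07e-07). Cxcl9 and Rtp4, a chaperone for membrane receptors, were higher at 2.93 and 2.26, and Irf8 and Oas1a lower at -3.20 and -2.39. Ifit3 and Ifit3b were at 3.63 and 3.74, Oas1g at -2.15, Oasl1 and Oasl2 at 1.87 and -1.30, and Mx2 at 1.90. Mx1, at 0.42, did not pass. Ubd (0.70) and Tap1 (-0.05) did not pass; each was lower than at day 0 on both later days. Ifnar2 (3.56), Mavs (1.67) and Irf2 (0.81) were higher. Ifngr1 (-2.28), Ifngr2 (-2.19), Mb21d1 (-4.88) and Tmem173 (-1.20) were lower, as were the inhibitors Socs1 (-2.04), Ptpn2 (-1.41) and Socs3 (-0.86), while Ptpn6 was higher (0.73). The Irf2 and Ptpn6 values were -0.13 and -0.25 by total counts.

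Few counts fell on the interferon genes themselves. Of the 9 listed, Ifng and Ifnk were measured in the intestinal files, at 0 to 6 counts each, and neither passed the filter; the other 7 were not analysed there. Ifng, the type II interferon, had 0 to 4 counts in the libraries labelled liver. The type I genes Ifnb1, Ifna1, Ifna2 and Ifna4 had at most 6 counts in any library labelled liver, and the type III genes Ifnl2 and Ifnl3 at most 6. Ifnk alone passed in the files labelled liver, with 2, 4 and 4 counts at day 0, 4, 2 and 6 at day 10 and 7, 13 and 13 at day 20. Its log2 fold change of day 20 over day 0 was 2.31 ± 0.73 (SE; edgeR adjusted p = 0.0124), a call lost without any 1 of 5 libraries.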

How the data were processed

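RNA was sequenced from 8 intestinal samples and 9 samples labelled liver. Per the labels' protocols, RNA came from a column kit and standard Illumina libraries. The intestinal files hold expected counts per gene, deposited by the authors (36.7% of values are not whole); they were rounded to whole numbers. For the samples labelled liver the authors deposited whole counts, one per numeric identifier. The submitters' processing notes name STAR, Partek and the build mm10, with no versions; the counting program and use of strand are not given in the sources used here. Of 24594 identifiers, 24570 matched a gene symbol; the 24 others held 3.93% to 22.1% of a library's counts.

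Each table was fitted on its own with edgeR 4.0.16 (R 4.3.3): TMM scaling, filterByExpr (minimum count 10, minimum total 15), quasi-likelihood tests on group means and Benjamini-Hochberg adjustment over all genes (18207 and 16694 tested). There were 8 comparisons. The fit was tested on simulated counts. Alternatives were DESeq2 1.42.0, RLE size factors, a stricter filter or none, a replicate block, only the groups compared, a log2 limit of 1, identifiers without a symbol left out, and each library left out; total-count scaling and a 2-day fit without day 10 replicate 3 were chosen after seeing the data. The members and gene lists were chosen with earlier results of these data known. One gene of the signal relay list is not reported here, and counts over that list leave it out. Values are given for the 8 members with the smallest p in each hepatectomy comparison and at day 10, the 6 with the smallest p elsewhere, close relatives, the 3 highest per kilobase in each group, and the 4 with the smallest p per upstream list. Nlrc5, Cxcl9, Cxcl10, Rsad2, Rtp4, Oas2 and other members outside this rule were chosen after their values were seen. Promoter windows came from RefSeq (GRCm38.p6); exon lengths, overlaps and 50-base shared stretches came from GENCODE vM21, in which 41 of the 42 members have the start and end of the files.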

Additional observations from a re-analysis of the deposited data

Results flagged for a closer look

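The effect of hepatectomy differed between crypts and IEC, by the edgeR test of the difference itself, for 10 members and 11 upstream genes. The 10 are 23.8% of members, beside 19.2% of all genes, a share near the background. Each value is the log2 change in crypts minus that in IEC. It was positive for Irf8 at 0.68 (0.30 in crypts and -0.38 in IEC), Ubd at 0.83 (0.50 and -0.33), Zbp1 at 0.53 (0.46 and -0.07), Ifi44 at 0.84 (0.40 and -0.44) and Dtx3l at 0.28 (0.09 and -0.19). It was negative for Oasl1 at -0.46 (0.25 in crypts and 0.71 in IEC), Stat2 at -0.57 (-0.42 and 0.15), Ifit2 at -1.14 (-1.13 and 0.01), Irf7 at -0.32 (0.23 and 0.55) and Xaf1 at -0.49 (-0.22 and 0.27).

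Among the receptor genes the difference was -0.53 for Ifnar1 (-0.24 in crypts and 0.30 in IEC), -0.59 for Ifnar2 (0.26 and 0.85), -0.34 for Ifngr1 (-0.15 and 0.20), -0.42 for Ifngr2 (0.07 and 0.48), -0.77 for Ifnlr1 (0.01 and 0.79) and -0.68 for Il10rb (0.20 and 0.88). Among relay and inhibitor genes it was 0.31 for Irf2 (0.37 in crypts and 0.06 in IEC), 0.71 for Mb21d1 (-0.37 and -1.08), -0.46 for Mavs (0.00 and 0.47), -0.34 for Tbk1 (0.14 and 0.49) and -0.53 for Ptpn6 (-0.04 and 0.49). The calls of Irf8, Ubd and Zbp1 held in every alternative apart from a required log2 change of at least 1, and those of Irf7, Xaf1, Dtx3l, Ifit2, Irf2, Mb21d1 and Tbk1 were lost without any 1 of at least 4 libraries.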

How the results depend on the processing

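Scaling moved the balance of directions in several comparisons. By total counts alone, 1 member rose and 18 fell in crypts after hepatectomy and 4 rose and 13 fell in IEC; 20 members were higher in sham crypts than in sham IEC, 9 were higher at day 20 than at day 0, and 12 higher at day 20 than at day 10. Under that scaling the sign turned after hepatectomy in crypts for Oasl1 (-0.072), Ddx58 (-0.0055), Irf7 (-0.093), Irf8 (-0.024), Tap2 (-0.039), Il10rb (-0.13) and Ticam1 (-0.033). In IEC it turned for Ddx58 (-0.014), Ifngr1 (-0.016) and Ticam1 (-0.048). Between sham crypts and sham IEC it turned for Oas1g (0.11), Ifih1 (0.048), Jak1 (0.13), Mavs (0.17) and Tbk1 (0.18). Between day 20 and day 0 it turned for Sp100 (-0.21), Ifnar1 (-0.50), Jak1 (-0.25), Irf2 (-0.17), Irf3 (-0.34) and Ptpn6 (-0.085). Between day 20 and day 10 it turned for Ifih1 (-0.23), Ddx60 (-0.032), Irf9 (-0.20), Parp14 (-0.30), Dtx3l (-0.17), Tap2 (-0.25), Ifnar1 (-0.085), Jak1 (-0.16), Irf2 (-0.13), Irf3 (-0.21), Ptpn6 (-0.25) and Pias1 (-0.55). The cause was not tested.

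With a log2 change of at least 1 also required, 0 members rose and 1 fell in crypts after hepatectomy, 0 and 0 in IEC, and 0 and 1 differed between the fractions; 6 were higher and 9 lower in sham crypts, and 6 and 11 in hepatectomy crypts. DESeq2 left 2 members with a lower change in crypts than in IEC. The stricter filter left 0 members risen at day 10. Leaving out 1 library at a time gave 7 to 15 risen and 3 to 4 fallen in crypts, 8 to 11 and 2 to 7 in IEC, 4 to 6 and 1 to 4 for the difference, 10 to 11 and 16 to 18 in sham crypts, 12 to 14 and 17 to 21 in hepatectomy crypts, 1 and 22 to 30 at day 10, 18 to 20 and 13 to 17 at day 20, and 27 to 29 and 6 to 8 between day 20 and day 10. The counts that moved by more than 1.5-fold without 1 library were the 14 members risen in crypts, with 8 without sham crypt replicate 2 and 7 without hepatectomy crypt replicate 2; the 6 fallen in IEC, with 2 without sham IEC replicate 1 and 3 without hepatectomy IEC replicate 1; and the 5 with a lower change in crypts, with 1 without sham IEC replicate 2 or sham crypt replicate 1, 2 without sham IEC replicate 1 or hepatectomy IEC replicate 1, and 3 without hepatectomy crypt replicate 1. A fit of days 0 and 10 alone without day 10 replicate 3 gave 25 fallen.

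Samples share replicate numbers across groups, but same-numbered samples did not deviate together over all genes tested (correlations of -0.03 to 0.11 in the intestine and -0.07 to 0.05 in the files labelled liver). With so few samples a group, these values cannot show whether same-numbered samples came from the same animal or preparation. The labels do not say. With the number as a replicate block, 14 members rose and 4 fell in crypts, 11 and 6 in IEC, 5 and 5 differed, 11 and 17 in sham crypts, 14 and 22 in hepatectomy crypts, 1 and 21 at day 10, 19 and 15 at day 20, and 27 and 8 between day 20 and day 10.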
